A study of Mus musculus with 8 samples.

Results

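The guanylate-binding proteins (GBPs) and the immunity-related GTPases (IRGs) were followed in mouse bone marrow neutrophils with and without Padi4, the gene of peptidylarginine deiminase 4. The group was defined by gene symbol: Gbp2, Gbp3, Gbp5, Gbp7, Gbp9, Igtp, Irgm1, Irgm2, Iigp1 and Ifi47. All 10 symbols were found among the 24421 genes of the count table. Of these 10 genes, 9 passed the expression filter of at least 1 read in at least 2 libraries, as did 12254 genes in all, and Iigp1 did not. Neutrophils came from 8-week-old female C57BL/6 mice and were isolated with magnetic beads. The WT cells were unstimulated or were given R848, a TLR7 agonist, at 1 µg/ml. The Padi4 KO cells, from C57BL/6 mice lacking Padi4 exon 1, were handled in the same 2 ways, which gives 4 groups of 2 libraries. The R848 cultures lasted 6 h. For the unstimulated cells the sample titles give 0 h and the methods of the study 6 h. If 0 h holds, R848 and time in culture cannot be told apart. The sources do not say whether the 2 libraries of a group came from separate mice, so p-values measure only the spread between these libraries, which may be technical.

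Both families are GTPases whose genes are switched on by interferons. GBPs are large GTPases of the dynamin superfamily that assemble as coats on vacuoles holding bacteria or parasites, on bacteria themselves, and around inflammasome reactions. IRGs fall into effectors, which load onto and disrupt pathogen vacuoles, and regulators, which sit on host membranes and hold the effectors inactive there. Irgm1, Irgm2 and Igtp are the regulators, and Ifi47 and Iigp1 are effectors. Transcription of the genes by interferon is classically driven through gamma-activated sites and interferon-stimulated response elements in their promoters.

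Both kinds of DNA element were looked for in the promoters, because they are the letters through which interferon is known to reach these genes. RefSeq promoter windows (GRCm38.p6, from 250 bases before to 50 after an annotated start) were matched for 8 of the 10 genes, and Gbp3 had 2 windows. The interferon-stimulated response element was searched as GAAANNGAAA and the gamma-activated site as TTCNNNGAA, each on both strands. The first was found in the promoters of 7 of the 8 genes and in 3.44% of all 32851 promoters. The second was found in 4 of the 8 genes and in 8.30% of all promoters. Gbp5, Gbp7, Igtp and Irgm2 held both, as did 0.454% of all promoters. Irgm1 and the first Gbp3 start each held 2 overlapping matches to the response element, Gbp2 held 1, and neither element was matched in the Ifi47 window or at the second Gbp3 start. The stretches around the matches are shown for the 4 genes that held both, with the matches in capitals. All 4 lie upstream of the RefSeq start that set the window and outside the exons annotated by GENCODE M21, on the plus strand. For Gbp5 and Irgm2 the GENCODE gene begins further upstream, so that their stretches fall between exons inside its span.
Gbp5, chr3:142496734-142496894: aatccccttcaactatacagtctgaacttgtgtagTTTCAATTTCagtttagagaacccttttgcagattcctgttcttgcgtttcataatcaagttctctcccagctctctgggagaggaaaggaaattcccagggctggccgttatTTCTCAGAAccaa
Gbp7, chr3:142530206-142530335: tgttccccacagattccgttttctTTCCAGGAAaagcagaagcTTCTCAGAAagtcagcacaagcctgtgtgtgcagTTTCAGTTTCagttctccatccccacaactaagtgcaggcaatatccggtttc
Igtp, chr11:58199456-58199555: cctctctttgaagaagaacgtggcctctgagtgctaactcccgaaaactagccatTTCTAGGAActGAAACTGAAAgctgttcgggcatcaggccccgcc
Irgm2, chr11:58214847-58214946: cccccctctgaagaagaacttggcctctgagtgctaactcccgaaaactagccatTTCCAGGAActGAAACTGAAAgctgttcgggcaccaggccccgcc
In Gbp5 and Gbp7 the response element was read on the minus strand, and in Igtp and Irgm2 on the plus strand. The stretches of Igtp and Irgm2 were identical at 94 of 100 bases, and in both the gamma-activated site lies directly before the response element. A further gamma-activated site of Gbp5, from 245 to 237 bases before the start, lies outside the stretch shown. A match describes the letters of the window and does not show binding.

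**Figure D1:**
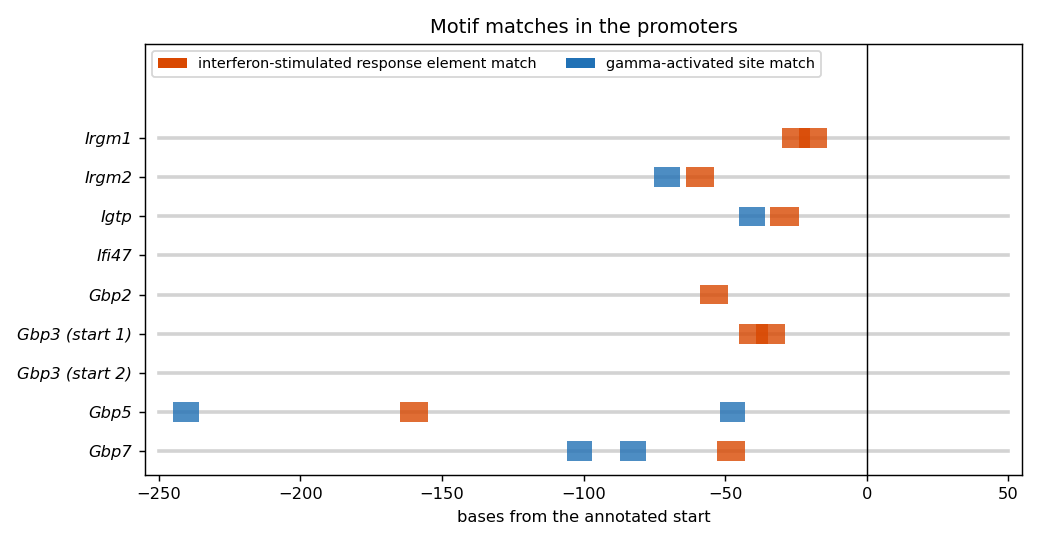
Matches to the interferon-stimulated response element and the gamma-activated site in 9 RefSeq promoter windows of 8 genes; the x axis gives bases from the annotated start, and each grey line is 1 window. Igtp and Irgm2 show the same pair of neighbouring matches, and the Ifi47 window and the second Gbp3 start show none.

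Gbp5, Gbp7, Gbp3 and Gbp2 stand in this order on the plus strand of chromosome 3 (GRCm38, GENCODE M21), between positions 142493978 and 142638008. Gbp9 lies on the minus strand of chromosome 5, from 105077630 to 105139539. On chromosome 11, Irgm1 spans 48861968 to 48871683 on the minus strand and Ifi47 spans 49076587 to 49096974 on the plus strand. Igtp (58199556 to 58207591) and Irgm2 (58199618 to 58222782) overlap on the plus strand of the same chromosome. Their exons share up to 162 bases, and 12.3% of the 50-base windows of the Igtp transcript also occur in Irgm2. The same share was 12.9% for Gbp7, mostly with Gm43802 and Gbp3, and 9.56% for Gbp9, mostly with Gbp8, Gbp4 and Gbp6. Ifi47 exons overlap Olfr56 on the same strand and Gm12188 on the other, and the strand setting of the counting is not given in the sources used here. Counts of these genes are uncertain to that extent.

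The libraries held between 562446 and 1177972 reads on genes, fewer in WT (mean 620595) than in Padi4 KO (mean 1032734). A count of 3 reads, the limit a count of 0 allows, corresponded to between 2.55 and 5.33 CPM (reads scaled to a common library size), for counting error only. Padi4 reads were fewer in every Padi4 KO library than in any WT library: 590 and 527 in unstimulated WT, 166 and 234 in WT after R848, 40 and 54 in unstimulated Padi4 KO, and 34 and 21 in Padi4 KO after R848. Neutrophil markers took up 123095 to 165758 CPM, with all 11 of those in the table detected in every library. Their summed level was lower in all Padi4 KO libraries (123095 to 132007 CPM) than in all WT libraries (151846 to 165758 CPM).

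Per transcript length, the regulators Irgm1, Irgm2 and Igtp had the highest means over all libraries, and Iigp1 was at 0. In CPM per kilobase of the longest coding transcript, the means over all 8 libraries were 22.6 for Irgm1, 20.5 for Irgm2, 18.9 for Igtp and 12.1 for Ifi47. Gbp2 reached 9.27, Gbp7 3.35, Gbp9 2.95, Gbp5 2.66 and Gbp3 0.882 CPM per kilobase. This order over all libraries did not hold in each group. In unstimulated WT, Gbp7 was at 5.28, Gbp9 at 3.52 and Gbp5 at 0.536, and in WT after R848 at 1.33, 3.40 and 5.03 CPM per kilobase. In unstimulated Padi4 KO, Igtp (15.3 ± 1.32) lay above Irgm2 (11.7 ± 0.61 CPM per kilobase, SD, n = 2). In unstimulated WT neutrophils the 3 regulators did not differ beyond their spread: Irgm1 was at 16.9 ± 1.23, Irgm2 at 15.4 ± 1.74 and Igtp at 15.3 ± 1.09 CPM per kilobase (SD, n = 2). Ifi47 followed at 9.51 ± 3.81 and Gbp2 at 8.42 ± 0.26 CPM per kilobase (SD, n = 2), which overlap as well. In unstimulated Padi4 KO, Gbp2 (10.3 ± 1.94) and Ifi47 (9.15 ± 2.11 CPM per kilobase, SD, n = 2) stood in the other order, again within their spread. After R848 in WT, Irgm2 (34.7 ± 6.49) and Irgm1 (33.1 ± 8.03 CPM per kilobase, SD, n = 2) did not differ beyond their spread either. The levels below are TMM-scaled CPM without division by length, and they compare libraries, not genes.

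**Figure D2:**
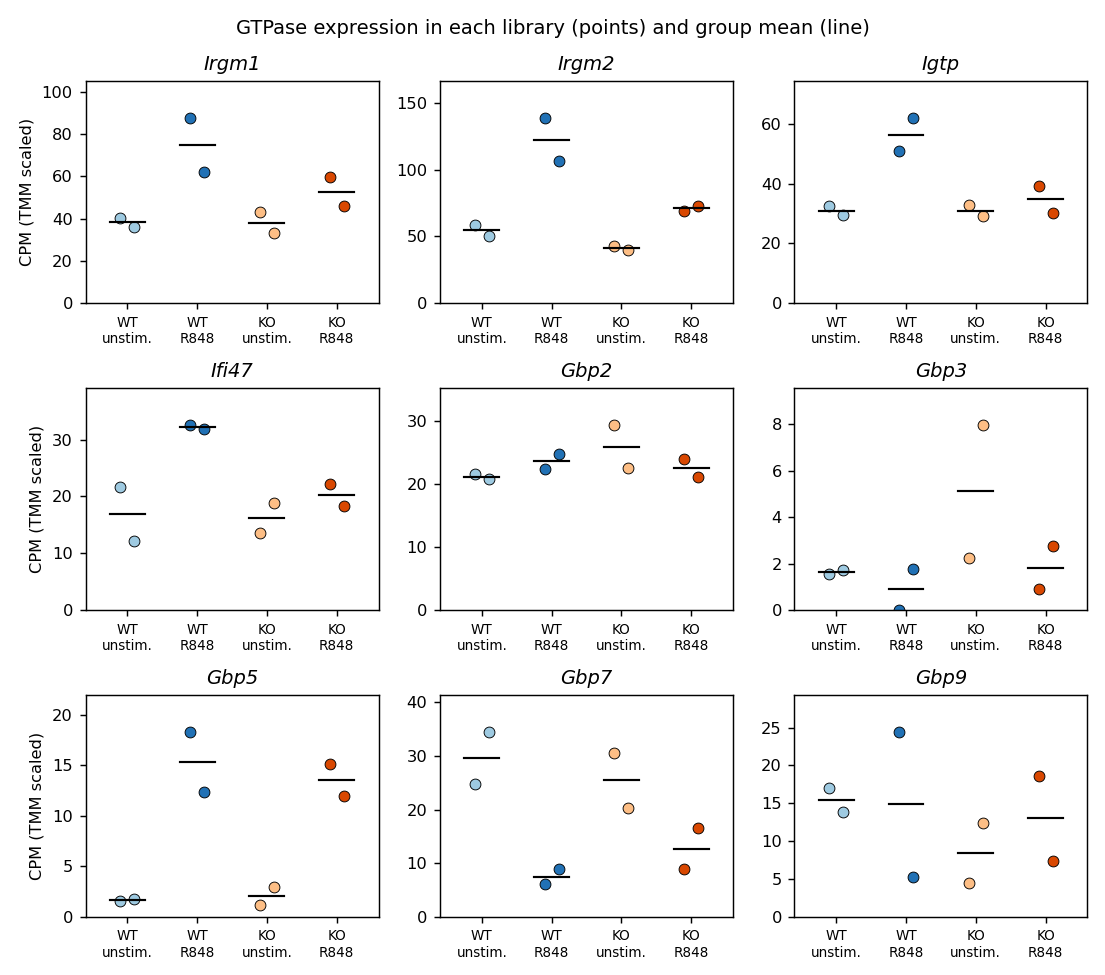
TMM-scaled CPM of the 9 expressed GTPase genes; each point is 1 library, each line the mean of the 2 libraries of a group, and every panel has its own y axis from 0. Irgm2 rises from 50.1 and 58.7 to 106 and 139 CPM in WT, Gbp5 comes up from under 3 CPM in both genotypes, and Gbp7 goes down.

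The first comparison asks how WT neutrophils change these genes after TLR7 stimulation. Of the 9 genes tested, 5 rose (Gbp5, Irgm2, Irgm1, Ifi47 and Igtp), 1 fell (Gbp7) and 3 did not pass the test (edgeR quasi-likelihood test, Benjamini-Hochberg adjusted p below 0.1 over all genes tested). Among all genes tested, 13.5% rose and 16.0% fell by this rule. With a change of over 2-fold required too, Gbp5 and Irgm2 rose and Gbp7 fell, against 7.17% and 10.8% of all genes. The median log2 fold change was 0.87 over the 9 genes and −0.17 over all genes. In bulk RNA, fewer cells of a type and less RNA per cell cannot be told apart.

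Irgm2, a Golgi-associated regulator, was read between 29 and 79 times per library. It was at 58.7 and 50.1 CPM in unstimulated WT and at 139 and 106 CPM after R848. Both stimulated libraries lay above both unstimulated ones, with a log2 fold change of 1.15 ± 0.22 (SE) and an adjusted p of 1.559e-06 by edgeR. With 2 libraries per group, groups often lie apart by chance, and the share of all genes that lie apart was not counted. Non-overlap is therefore given only as a description, here and below. Irgm1, the regulator found on endolysosomal and mitochondrial membranes, was at 40.2 and 36.3 CPM without and at 87.6 and 62.0 CPM with R848. The groups did not overlap and the log2 fold change was 0.95 ± 0.27 (SE, adjusted p = 0.00252 by edgeR).

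Igtp, the regulator also known as Irgm3, went from 32.5 and 29.4 CPM to 51.0 and 62.0 CPM in WT. The effector Ifi47 went from 21.6 and 12.1 CPM to 32.6 and 31.9 CPM. Neither gene overlapped between the groups, and the log2 fold changes were 0.87 ± 0.30 (SE, adjusted p = 0.0179 by edgeR) for Igtp and 0.91 ± 0.40 (SE, adjusted p = 0.0870) for Ifi47. DESeq2 called neither, at log2 fold changes of 0.94 (adjusted p = 0.118) and 1.00 (adjusted p = 0.254), and scaling by library size alone ended both calls at 0.57 and 0.60. Without the second unstimulated WT library the values by edgeR were 0.81 (adjusted p = 0.101) for Igtp and 0.57 (adjusted p = 0.459) for Ifi47. Without the second WT R848 library they were 0.82 (adjusted p = 0.126) and 1.02 (adjusted p = 0.146), and without the first Ifi47 was at 1.03 (adjusted p = 0.123). The effector Iigp1 had no read in any of the 8 libraries, which together allow up to 0.454 CPM.

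Gbp5, which has been tied to assembly of the NLRP3 inflammasome, had the largest log2 fold change of the 9 genes in WT. It had 1 and 1 reads in the unstimulated WT libraries and 9 and 7 after R848, or 1.55 and 1.73 CPM against 18.3 and 12.4 CPM. The ratio of the summed reads, scaled by TMM-adjusted library sizes, was 9.29 with a counting interval from 2.19 to 83.3, and edgeR gave an adjusted p of 0.00221. The fitted log2 fold change of 3.11 ± 0.87 (SE) depends on the prior count, since 2 reads carry the unstimulated level. Gbp7, a neighbour of Gbp5, moved the other way, from 24.7 and 34.5 CPM to 6.11 and 8.85 CPM. Its groups did not overlap, and its log2 fold change was −1.93 ± 0.51 (SE, adjusted p = 0.00102 by edgeR).

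The remaining GBPs did not pass the test in WT. Gbp2, a GBP that coats parasite vacuoles, was at 21.6 and 20.7 CPM without and at 22.4 and 24.8 CPM with R848, a log2 fold change of 0.16 with a 95% interval from −0.65 to 0.97. Its groups lay apart as well, at an adjusted p of 0.855 by edgeR. Gbp9 was at 17.0 and 13.8 CPM and then at 24.5 and 5.31 CPM, so that the spread between the stimulated libraries covered the unstimulated values. Its log2 fold change was −0.12 ± 0.51 (SE), and leaving out 1 stimulated library moved it between −1.38 and 0.75. Gbp3 had 1 and 1 reads without and 0 and 1 reads with R848, so that no change was detectable at this depth (adjusted p = 0.848 by edgeR).

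In Padi4 KO neutrophils 3 of the 9 genes rose (Gbp5, Irgm2 and Irgm1) and Gbp7 fell by the same rule. Of all genes, 19.2% rose and 15.9% fell in this comparison. With over 2-fold required, Gbp5 alone among the 9 rose and none fell, against 8.07% and 8.84% of all genes. The median log2 fold change was 0.28 over the 9 genes and −0.031 over all genes.

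Irgm2 was at 43.0 and 39.9 CPM in unstimulated Padi4 KO and at 69.3 and 72.6 CPM after R848. The groups did not overlap, and its log2 fold change of 0.78 ± 0.19 (SE, adjusted p = 0.00032 by edgeR) passed under every alternative run, with 0.41 (adjusted p = 0.0893) once library size alone was used. Irgm1 went from 43.0 and 33.4 CPM to 59.5 and 46.0 CPM, a log2 fold change of 0.51 ± 0.21 (SE, adjusted p = 0.0544). This call was lost with DESeq2 (0.40, adjusted p = 0.536), with relative log expression factors (0.42, adjusted p = 0.122) and with library size alone (0.13, adjusted p = 0.674). It was also lost without any of 5 libraries: the second unstimulated KO library (log2 fold change 0.30), the first or second KO R848 library (0.16 and 0.55), and the first or second WT R848 library (0.37 and 0.38).

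Igtp in Padi4 KO was at 32.8 and 29.0 CPM without and at 39.1 and 30.3 CPM with R848, and these groups overlapped. Its log2 fold change was 0.19 with a 95% interval from −0.29 to 0.67. Ifi47 overlapped too, with 13.6 and 18.9 CPM against 22.2 and 18.4 CPM, and its log2 fold change was 0.28 (95% interval from −0.37 to 0.92). Both values turned negative when libraries were scaled by their size alone.

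Gbp5 had 1 and 4 reads in unstimulated Padi4 KO libraries and 17 and 13 after R848, or 1.13 and 2.90 CPM against 15.1 and 11.9 CPM. The ratio of the summed reads, scaled in the same way, was 6.13 with a counting interval from 2.36 to 20.2, and the fitted log2 fold change was 2.54 ± 0.60 (SE, adjusted p = 0.000175 by edgeR). Gbp7 was at 30.5 and 20.3 CPM and then at 8.88 and 16.5 CPM, again without overlap, with a log2 fold change of −0.94 ± 0.34 (SE, adjusted p = 0.0208). The Gbp7 call was lost with DESeq2 (−1.07, adjusted p = 0.215), without the first unstimulated KO library (−0.68) and without the first KO R848 library (−0.70). Without the second KO R848 library the log2 fold change of Gbp7 was −1.57.

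Gbp2 (29.4 and 22.5 CPM against 24.0 and 21.1 CPM) and Gbp9 (4.52 and 12.3 CPM against 18.7 and 7.35 CPM) overlapped between the Padi4 KO groups. Their log2 fold changes were −0.16 ± 0.29 and 0.49 ± 0.43 (SE). Gbp3 had 2 and 11 reads without and 1 and 3 reads with R848, a scaled ratio of 0.315 with a counting interval from 0.0747 to 1.02 (adjusted p = 0.143 by edgeR).

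**Figure D3:**
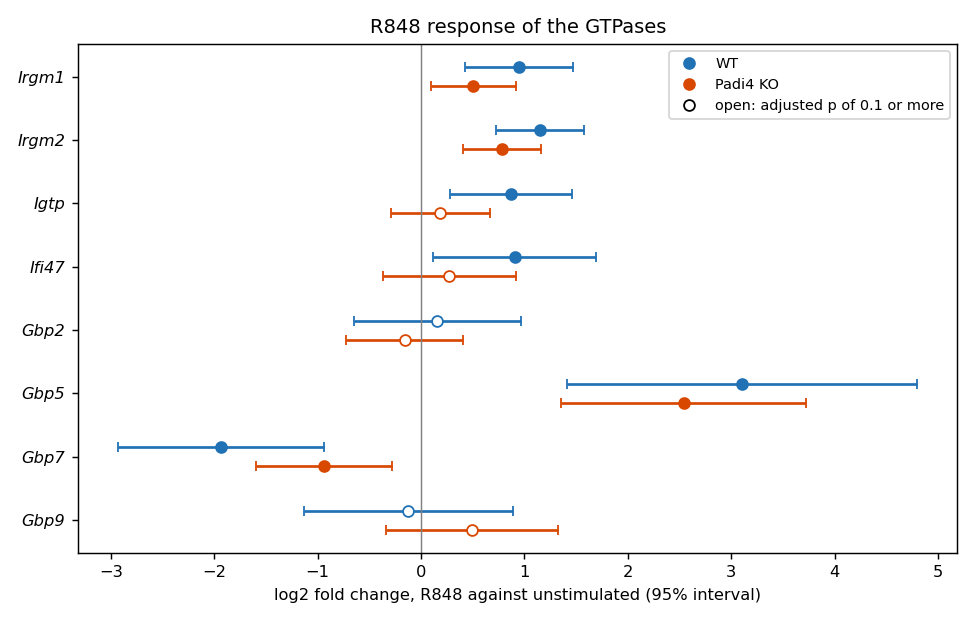
Log2 fold change after R848 with its 95% interval for 8 GTPase genes in WT (blue) and Padi4 KO (orange), filled where the edgeR adjusted p is below 0.1; Gbp3 is left out for its low counts. Irgm1, Irgm2, Igtp and Ifi47 lie to the right in WT (0.87 to 1.15) and closer to 0 in Padi4 KO (0.19 to 0.78), with overlapping intervals.

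The difference of the responses, Padi4 KO minus WT, tests whether the genotype changes the response itself. None of the 9 genes passed, with edgeR 0 were under an unadjusted p of 0.05, and DESeq2 called 0. By edgeR, 3.45% of all genes had a higher and 1.26% a lower response in Padi4 KO. That balance turned with DESeq2 (35 genes higher and 90 lower) and with relative log expression factors (160 and 233), and held with library size alone (255 and 170). The median difference was −0.44 over the 9 genes and 0.19 over all genes on the log2 scale. The median over all genes went to 0.041 with relative log expression factors and 0.0055 with DESeq2, and to between −0.068 and −0.0063 without any 1 R848 library. All 4 expressed IRGs had a negative difference. It was −0.68 for Igtp (95% interval from −1.45 to 0.08), −0.63 for Ifi47 (from −1.66 to 0.40), −0.44 for Irgm1 (from −1.11 to 0.23) and −0.37 for Irgm2 (from −0.95 to 0.22). All 4 intervals include 0 and reach well below it, so that neither equal nor weaker induction in Padi4 KO is shown. For Gbp7 the difference was 1.00 (from −0.27 to 2.26), for Gbp9 0.62 (from −0.69 to 1.92), for Gbp2 −0.32 (from −1.30 to 0.67) and for Gbp5 −0.57 (from −3.05 to 1.91). DESeq2 gave no adjusted p for 8 of the 9 genes here.

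Genotypes were also compared directly. In unstimulated neutrophils none of the 9 genes differed between Padi4 KO and WT by edgeR, 0 were under an unadjusted p of 0.05 and DESeq2 called 0, against 9.55% of all genes higher and 14.4% lower. The 4 expressed IRGs had log2 fold changes of −0.022 (Igtp), −0.030 (Ifi47), −0.044 (Irgm1) and −0.41 (Irgm2, adjusted p = 0.252). The 2 groups of Irgm2 did not overlap, with 50.1 and 58.7 CPM in WT against 39.9 and 43.0 CPM in Padi4 KO. The GBPs lay between −0.73 (Gbp9) and 0.41 (Gbp5), apart from Gbp3, with 2 WT reads against 13 Padi4 KO reads (adjusted p = 0.264). Gbp9 was called lower without the second unstimulated KO library (−1.73, adjusted p = 0.0907).

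After R848, Irgm2 and Igtp were lower in Padi4 KO than in WT and none of the 9 genes was higher, against 7.81% of all genes lower and 9.46% higher. The balance of all genes turned with DESeq2 (387 higher and 621 lower) and with relative log expression factors (990 and 1359), and held with library size alone (1870 and 417). The median log2 fold change was −0.16 over the 9 genes and 0.083 over all genes. Irgm2 was at 139 and 106 CPM in WT and at 69.3 and 72.6 CPM in Padi4 KO, a log2 fold change of −0.77 ± 0.18 (SE, adjusted p = 0.000412 by edgeR). Under the alternatives the Irgm2 difference kept its call, between −1.05 and −0.56. Igtp was at 51.0 and 62.0 CPM against 39.1 and 30.3 CPM, without overlap, a log2 fold change of −0.71 ± 0.26 (SE, adjusted p = 0.0462). The Igtp call was lost with DESeq2 (−0.81, adjusted p = 0.247), with library size alone (−0.49, adjusted p = 0.211), without the second KO R848 library (−0.64, adjusted p = 0.171) and without the second WT R848 library (−0.63, adjusted p = 0.291).

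Irgm1 and Ifi47 had differences of a like size after R848 that did not pass. Irgm1 was at 87.6 and 62.0 CPM in WT and at 59.5 and 46.0 CPM in Padi4 KO (log2 fold change −0.48, adjusted p = 0.140 by edgeR). It passed with relative log expression factors (−0.58, adjusted p = 0.0509), without the first KO R848 library (−0.80, adjusted p = 0.0314) and without the second WT R848 library (−0.81, adjusted p = 0.0279). Ifi47 was at 32.6 and 31.9 CPM against 22.2 and 18.4 CPM (−0.66, adjusted p = 0.224). Gbp5 (−0.16, 95% interval from −1.10 to 0.78), Gbp2 (−0.068), Gbp9 (−0.12) and Gbp7 (0.73, adjusted p = 0.490) did not pass. The 2 groups of Gbp7 lay apart all the same. The Gbp7 value moved to 0.13 without the second and 1.00 without the first KO R848 library, and to 0.37 without the first WT R848 library. Without the first WT R848 library Gbp2 was at −0.28 and Gbp5 at −0.014, and without the second Gbp5 was at −0.51. Gbp3 had 1 read in WT and 4 in Padi4 KO (adjusted p = 0.807).

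Markers of neutrophils and of other cells moved with the genotype, and several moved with R848 as well. With R848, 4 of 11 neutrophil markers rose and 6 fell in WT, and 5 rose and 4 fell in Padi4 KO. On the TMM scale used for the GTPases, 10 of 11 neutrophil markers were called lower in Padi4 KO without R848 (median log2 fold change −0.57) and 9 of 11 after it (median −0.62), beside the −0.77 of Irgm2 and −0.71 of Igtp after R848. The 14 erythroid markers, 5 of them haemoglobin genes at 0 in every library, summed to 865 to 916 CPM in unstimulated Padi4 KO against 76.5 to 103 CPM in WT. After R848 they summed to 1104 to 1118 CPM against 22.4 to 47.5 CPM. The 10 monocyte and macrophage markers summed to 3248 to 3266 CPM against 2052 to 2078 CPM without R848 and to 3752 to 3843 CPM against 3440 to 3573 CPM with it. Of these 10, 5 were called higher and 1 lower in Padi4 KO in each condition (medians 0.59 and 0.67 on the log2 scale). After R848 the marker with the most reads, Adgre1, was the 1 called lower (means of 1798 against 2443 CPM on the TMM scale, unlike the sums). Adgre1 itself rose with R848, by 5.96 in WT and 5.63 in Padi4 KO on the log2 scale. Of the 10 markers, 4 rose and 4 fell with R848 in each genotype, so the sums after it also carry the response to R848. The 10 stromal and endothelial markers summed to 276 to 323 CPM in Padi4 KO against 140 to 190 CPM in WT without R848. After R848 they summed to 74.9 to 76.4 CPM against 123 to 124 CPM. Of the 5 that could be tested, Col1a1 and Vcam1 made up most of these sums and moved apart. On the TMM scale, Col1a1 had a mean of 212 CPM in unstimulated Padi4 KO against 103 CPM in WT, and was not called after R848 (14.5 against 9.25 CPM). Vcam1 was called lower in Padi4 KO in both conditions (log2 fold changes of −1.63 and −1.31). With R848 Col1a1 fell (−3.43 in WT and −3.88 in Padi4 KO) and Vcam1 rose (1.45 and 1.76). The 9 T and NK cell markers summed to 18.1 to 20.9 CPM in unstimulated Padi4 KO against 32.0 to 42.1 CPM in WT, and to 5.09 to 9.70 CPM against 9.83 to 11.96 CPM after R848. These sums rest on few reads. Of the 4 that could be tested, 1 was called lower in unstimulated Padi4 KO and 0 were called after R848. Markers of dendritic cells (18.1 to 59.0 CPM) and B cells (4.92 to 16.8 CPM) overlapped between the genotypes. The part of these shifts in the GTPase differences was not tested.

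**Figure D4:**
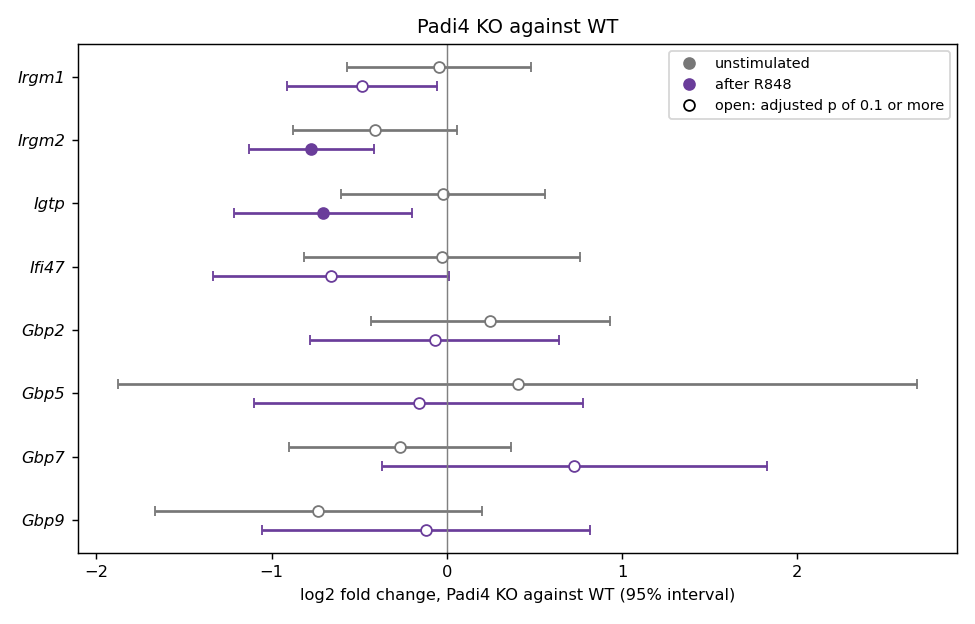
Log2 fold change of Padi4 KO against WT with its 95% interval for 8 GTPase genes, unstimulated (grey) and after R848 (purple), filled where the edgeR adjusted p is below 0.1. After R848, Irgm2 (−0.77) and Igtp (−0.71) are filled and lie to the left, and no gene is filled without stimulation.

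The genes upstream of the GTPases were summarised from lists, each with its median log2 fold change, to be read beside the −0.17 in WT and −0.031 in Padi4 KO of all genes. No read of Ifng, Ifnb1 or any of 10 other interferon genes was found in any library. All 6 receptor subunits of the list rose in both genotypes, with medians of 1.40 in WT and 1.81 in Padi4 KO. For Ifngr1 and Ifngr2, which form the receptor for interferon gamma, the log2 fold changes were 0.64 and 1.61 in WT and 0.58 and 1.91 in Padi4 KO. With library size alone the Ifngr1 call was lost in both genotypes (0.34, adjusted p = 0.118, and 0.20, adjusted p = 0.249). Ifnar1, of the type I interferon receptor, changed by 1.64 and 1.83, and Il10rb, shared by the interferon lambda and IL-10 family receptors, by 2.07 and 1.92. Ifnlr1 was the receptor with a called difference of response (1.19 in WT and 1.79 in Padi4 KO, difference 0.60, adjusted p = 0.0402 by edgeR), and DESeq2 did not call it (0.45, adjusted p = 0.505). The Ifnlr1 difference was also lost with library size alone, with relative log expression factors, and without any 1 library (0.30 to 0.54) other than the second unstimulated KO or the first unstimulated WT library. Ifnlr1 was already lower in unstimulated Padi4 KO than in WT (93.4 against 170 CPM, −0.85, adjusted p = 6.27e-07 by edgeR). After R848 the genotypes stood at 327 and 388 CPM (−0.25, adjusted p = 0.119).

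Of 6 signal transducers, 4 rose in each genotype: the receptor kinases Tyk2 (2.62 in WT and 2.12 in Padi4 KO on the log2 scale), Jak2 (1.36 and 1.74) and Jak1 (0.25 and 0.41), and Irf9 (0.73 and 0.65), the DNA-binding part of the type I interferon complex. The medians of these 6 genes were 0.60 and 0.53. With library size alone the Jak1 call was lost in both genotypes (−0.058 in WT and 0.033 in Padi4 KO), and Irf9 kept its call at 0.42 and 0.28. Filtering with filterByExpr moved Jak1 in WT just past the threshold (0.19, adjusted p = 0.1001).

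Among 7 interferon regulatory factors and transactivators tested, 3 rose and 1 fell in WT and 4 rose and 1 fell in Padi4 KO (medians 0.47 and 0.58). Irf5, which acts below TLR7, changed by 1.76 and 1.11, Irf7, the driver of interferon alpha genes, by 0.83 and 0.58, and Irf3 by 0.58 and 1.13 on the log2 scale. With library size alone the Irf7 rise in Padi4 KO was lost (0.20, adjusted p = 0.258), as was the Irf3 rise in WT (0.28, adjusted p = 0.438), while Irf5 in Padi4 KO (0.74) and Irf7 in WT (0.53) passed. DESeq2 put Irf7 in Padi4 KO just past the threshold (0.51, adjusted p = 0.1005). The Irf3 rise in WT was lost with DESeq2 (0.66, adjusted p = 0.188). So was the fall by 1.40 of Irf8 in WT (−1.32, adjusted p = 0.129), a factor of the monocyte and dendritic lineages that was at −2.03 in Padi4 KO. Irf1, a classic driver of GBP genes, did not pass, with −0.40 in WT and −0.29 in Padi4 KO. Other settings called it lower. With library size alone it was at −0.70 in WT (adjusted p = 0.00138) and −0.67 in Padi4 KO (adjusted p = 2.81e-05), and with filterByExpr at −0.45 (adjusted p = 0.04997) and −0.35 (adjusted p = 0.0398). With relative log expression factors it passed in Padi4 KO (−0.38, adjusted p = 0.0335).

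The 9 genes listed with the inhibitors of interferon signalling included 6 that rose in WT and 8 that rose in Padi4 KO, with none lower and medians of 1.50 and 1.09. The phosphatases Ptpn6 (1.58 and 1.54) and Ptpn11 (1.50 and 1.49) and the ubiquitin-like modifier Isg15 (2.12 and 1.36) were among them. Socs3, a feedback inhibitor of cytokine receptors, rose less in Padi4 KO (1.30) than in WT (2.25), a difference of −0.95 (adjusted p = 0.00910 by edgeR) that was lost without the second unstimulated WT library (−0.83, adjusted p = 0.134). Socs3 was already higher in unstimulated Padi4 KO than in WT (101 against 43.8 CPM, log2 fold change 1.17, adjusted p = 6.65e-07), and after R848 the genotypes stood at 245 and 210 CPM (0.22, adjusted p = 0.309).

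**Figure D5:**
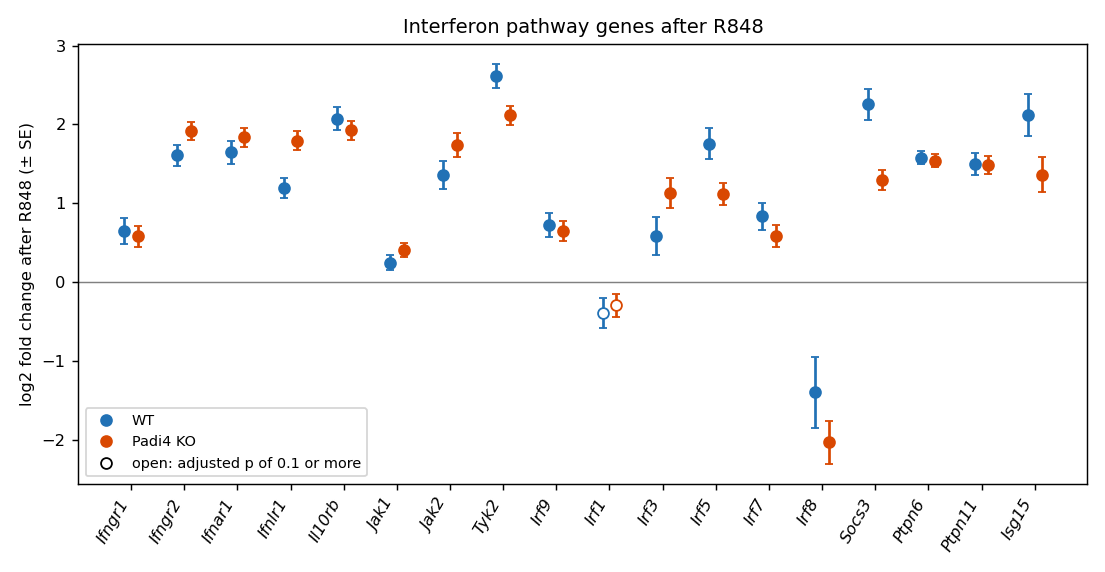
Log2 fold change after R848 (± SE) of receptor, kinase, transcription factor and inhibitor genes of the interferon pathway and of Isg15 in WT (blue) and Padi4 KO (orange), filled where the edgeR adjusted p is below 0.1. Receptor subunits and Tyk2 lie above 0 in both genotypes, Irf1 is open in both, and Irf8 lies below 0.

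Downstream partners were counted as well. Of 14 genes for the ubiquitin-like conjugation that brings IRGs and GBPs to vacuoles, 4 rose and 2 fell in WT and 7 rose and 1 fell in Padi4 KO (medians 0.086 and 0.47). The adaptor Sqstm1 rose by 3.61 and 3.50 and Gabarap by 0.84 and 1.00 on the log2 scale, or by 0.54 and 0.62 with library size alone. Map1lc3b fell in WT (−0.50) and was at 0.12 in Padi4 KO, a difference of 0.62 (adjusted p = 0.0150 by edgeR) that DESeq2 did not call (0.46, adjusted p = 0.440) and that was lost with relative log expression factors. With library size alone Map1lc3b was called lower in both genotypes (−0.80 and −0.26). The difference was also lost without any 1 library (0.28 to 0.57) other than the first unstimulated KO or the second unstimulated WT library. Map1lc3b was already lower in unstimulated Padi4 KO than in WT (217 against 312 CPM, −0.53, adjusted p = 6.33e-05 by edgeR). After R848 the genotypes stood at 234 and 220 CPM (0.088, adjusted p = 0.726). Prenylation anchors Gbp2 and Gbp5 in membranes. Of 5 genes for prenylation and the processing steps after it, 1 fell in WT and none passed in Padi4 KO (medians 0.071 and −0.15). The 1 that fell was Icmt, of a step after the prenyl group is attached. The Icmt call was lost with DESeq2.

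Of 8 inflammasome partners, 4 rose and 1 fell in WT and 5 rose and 1 fell in Padi4 KO (medians 0.55 and 0.76). Nlrp3 rose by 2.21 and 1.84 and Casp4, which senses lipopolysaccharide on GBP coats, by 2.52 and 1.66 on the log2 scale. The adaptor Pycard fell by 1.74 in WT and by 1.33 in Padi4 KO on the log2 scale. Il1b was the gene of this list with a called difference of response (5.99 in WT, 3.48 in Padi4 KO, difference −2.51). Without R848 it was already higher in Padi4 KO than in WT (270 against 82.3 CPM, log2 fold change 1.70, adjusted p = 1.04e-31 by edgeR). After R848 it was lower (3005 against 5254 CPM, −0.80, adjusted p = 4.34e-31), so the difference of response includes the unequal starting levels.

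Other interferon-inducible GTPases were mostly at low counts or 0, apart from Gm1966, with 54 to 118 reads per library and log2 fold changes of 0.22 in WT (adjusted p = 0.472 by edgeR) and 0.068 in Padi4 KO (adjusted p = 0.788). Of 19 further GBP, IRG, GVIN and MX genes in the table, 8 had no read in any library and 9 could be tested. None passed in WT (median −0.074), and 2 fell in Padi4 KO after R848 (median −1.17), most of the 9 averaging under 10 reads per library. These 2, named after their values were seen, were the antiviral GTPase Mx1, with 9 and 20 reads without and 2 and 2 reads with R848, and the IRG Tgtp2, with 5 and 8 against 0 and 3 reads.

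Across the 8 libraries, Irgm2, the gene of the group with the highest mean (72.3 CPM), was compared with 6912 genes of at least 10 reads on average by Pearson's correlation of log2(CPM + 1). Closest were Ube2d2a (r = 0.994), Evi2a (0.994), Tgfbr1 (0.994), Pstpip2 (0.994) and Mcemp1 (0.992). Within the group Irgm1 was at 0.92, Ifi47 and Igtp at 0.84, Gbp9 at 0.25, Gbp2 at −0.14 and Gbp7 at −0.86. The points share genotype, treatment and depth, and the correlations are given as a description.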

How the data were processed

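The authors trimmed reads with cutadapt 1.16, removed low-quality reads, mapped the rest to mm10 with STAR 2.5.3a and counted them per gene symbol with HTSeq 0.6.1p1. The annotation and strand setting are not given in the sources used here. The deposited values are raw read counts in 8 libraries. The summary lines were left out: 8.98% to 11.5% of reads lay outside genes and 1.31% to 1.69% were ambiguous.

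Genes with at least 1 count in at least 2 libraries were fitted with edgeR 4.0.16 in R 4.3.3 (TMM factors, 4 group means, robust quasi-likelihood test, Benjamini-Hochberg adjustment over 12254 genes, threshold 0.1). Standard errors were derived from each log2 fold change and its F statistic. Of the genes tested, 5342 had under 10 reads on average. DESeq2 1.42.0, the tool family of the study, other scalings and filters, a replicate block and leaving out each library were alternatives. The fit was also run on simulated data as a check of the code, where a first criterion was missed and replaced. The outcome is not reported and supports no result here.

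Groups came from the sample labels. Same-numbered libraries did not deviate together. The GTPases and all lists were chosen with earlier results of these data known. Named were all 10 GTPases, Padi4, the classic drivers Irf1, Ifng, Ifngr1 and Ifngr2, and of each further list at most 4 genes with the smallest p in WT or in the difference of response. Adgre1, Col1a1, Vcam1, Mx1 and Tgtp2 were chosen outside this rule, with their values known. Marker sums are CPM of library totals, and Ly6g was not analysed here. A result of the signal transducer list is not reported here.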

Additional observations from a re-analysis of the deposited data

How the results depend on the processing

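With 562446 to 1177972 reads per library and 2 libraries per group, Irgm2, the one of the 10 GTPases with the most reads, had at most 79 in a library, and many changes of under 2-fold could not be separated from the spread. Of 12 called GTPase results, 7 passed under every alternative that gave an adjusted p: both responses of Gbp5, both responses of Irgm2 and its difference after R848, and the WT responses of Gbp7 and Irgm1. With DESeq2, 3 GTPases rose in WT, 0 fell in Padi4 KO and 1 was lower in Padi4 KO after R848. DESeq2 called 2264 genes in WT, 2121 in Padi4 KO, 125 for the difference of response, 1061 between unstimulated and 1008 between R848-treated genotypes, where edgeR called 3621, 4299, 577, 2933 and 2116. The cause was not tested.

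Scaling moved the balance of all genes. In WT 1657 genes rose and 1964 fell with TMM factors, 1807 and 1740 with relative log expression factors, and 1075 and 3127 with library size alone. In Padi4 KO these were 2352 and 1947, 2059 and 2288, and 1264 and 3823. For the difference of response they were 423 and 154, 160 and 233, and 255 and 170. Between genotypes they were 1170 and 1763, 1309 and 1502, and 1901 and 561 without R848, and 1159 and 957, 990 and 1359, and 1870 and 417 with R848. Library size alone moved the median log2 fold change of all genes from −0.17 to −0.47 in WT and from −0.031 to −0.41 in Padi4 KO, and between genotypes from −0.034 to 0.22 without and from 0.083 to 0.30 with R848. With it 3 GTPases rose in WT, 2 fell in Padi4 KO and 1 was lower in Padi4 KO after R848, and values near 0 changed sign. These were Gbp2 (−0.14) and Jak1 (−0.058) in WT, and Ifi47 (−0.10), Igtp (−0.19) and Map1lc3b (−0.26) in Padi4 KO. Between genotypes they were Gbp7 (0.019), Ifi47 (0.26), Igtp (0.26) and Irgm1 (0.24) without R848 and Gbp2 (0.14), Gbp5 (0.052) and Gbp9 (0.094) with it. Unstimulated Ifi47, Igtp and Irgm1 also turned positive with DESeq2 (0.0086, 0.046 and 0.036) and with relative log expression factors (0.026, 0.033 and 0.012).

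The replicate numbers come from the labels, and same-numbered libraries did not deviate together (correlations from −0.019 to 0.021). A replicate block called 3543 genes in WT, 4138 in Padi4 KO and 575 for the difference of response. It changed no GTPase call and turned 1 value, unstimulated Irgm1 (0.0038).

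Leaving out 1 library at a time, where a lone library was assumed to vary like the other groups, gave 3 to 5 rising GTPases in WT, 0 to 2 falling in Padi4 KO, 1 to 3 lower in Padi4 KO after R848 and 0 to 1 without it. It gave 268 to 471 called genes for the difference of response and 1944 to 2795 between unstimulated genotypes. Without any 1 of the 4 R848 libraries the balance turned, with 51 to 121 genes of higher and 199 to 350 of lower response in Padi4 KO. The number of all genes called moved with the library left out in every comparison. Whether the counts of called GTPases merely follow that number was not tested. Values that changed sign ranged, in WT, from −1.38 to 0.75 for Gbp9. In Padi4 KO they ranged from −0.40 to 0.0023 for Gbp2, −0.47 to 1.50 for Gbp9, −0.011 to 0.58 for Ifi47, −0.15 to 0.26 for Igtp and −0.029 to 0.15 for Map1lc3b. For the difference of response they ranged from −1.06 to 0.31 for Gbp5 and −0.44 to 1.74 for Gbp9. Between unstimulated genotypes they ranged from −0.46 to 0.79 for Gbp5, −0.51 to 0.064 for Gbp7, −0.37 to 0.47 for Ifi47, −0.089 to 0.13 for Igtp and −0.18 to 0.17 for Irgm1, and after R848 from −1.05 to 1.14 for Gbp9. Calls of pathway genes were lost for Jak1 in WT without the second unstimulated WT library (0.22) and in Padi4 KO without the second KO R848 library (0.22), which also ended that of Irf9 (0.33). They were lost in WT for Irf3 without the second unstimulated or second R848 library (0.31 and 0.66), for Irf8 without the first unstimulated or second R848 library (−0.73 and −1.19) and for Map1lc3b without the first R848 library (−0.29). Irf1 was called lower in WT without the second unstimulated or second R848 library (−0.58 and −0.64), and in Padi4 KO without the second KO R848 library (−0.58) or either WT R848 library (−0.43 and −0.42).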
